A study of Mus musculus with 30 samples.

Results

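Oxidative phosphorylation couples the oxidation of NADH and succinate to the synthesis of ATP at the inner mitochondrial membrane. Complex I and complex II pass electrons to ubiquinone, complex III passes them to cytochrome c, complex IV passes them to oxygen, and complex V (ATP synthase) uses the proton gradient that results. Complexes I, III, IV and V are built from subunits of both genomes, the nuclear and the mitochondrial, whereas complex II is entirely nuclear, so the RNAs of a single enzyme come from separate transcription systems. Brain endothelial cells (ECs) form the blood-brain barrier, much of whose transport consumes ATP, and they are known for a high content of mitochondria.

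The genes described here are the nuclear and mitochondrial genes of oxidative phosphorylation, chosen by symbol. A symbol was taken if it began with Ndufa, Ndufb, Ndufc, Ndufs, Ndufv, Uqcr, Atp5, mt-Nd, mt-Co, mt-Cyt or mt-Atp, if it began with Cox followed by a digit from 4 to 8, or if it was Sdha, Sdhb, Sdhc, Sdhd or Cyc1. In all, 120 symbols matched. Symbols ending in -ps, 9 in number, were dropped, and 4 more that are annotated only as processed pseudogenes (Cox6c2, Ndufa11b, Ndufb4c and Ndufs6b) were set apart. The remaining 107 genes, of 21761 protein-coding symbols in the tables, comprised 94 nuclear members and 13 mitochondrially encoded members. The nuclear members were 36 subunits of complex I, 8 Ndufaf assembly factors of complex I, 4 subunits of complex II, 9 of complex III, 20 of complex IV (with Ndufa4 and its relative Ndufa4l2 counted there) and 17 of complex V.

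RNA-seq and ATAC-seq were used to ask how brain ECs change over 8 days in culture and whether stabilizing beta-catenin alters that change. Adult male mice were used throughout. Acutely isolated cells came from the brains of mice carrying Tie2-GFP, a reporter driven by the endothelial Tie2 (Tek) promoter, and were sorted into GFP-positive ECs (2 RNA-seq libraries) and GFP-negative non-endothelial cells (2 libraries). The paper formed its adult brain EC data from a cerebrum and a cerebellum data set, the latter published earlier. Cultures were primary brain ECs selected with puromycin and grown for 8 days. The 6 WT cultures came from 3 experiments with a pair of wells each. Replicates 1 and 2 were from C57BL/6J mice isolated by a papain digestion (method A), and replicates 3 to 6 were from mice with the Ctnnb1flex3/+ allele and Tie2-GFP but no Cre, isolated by Dounce homogenization (method B) and given 4-hydroxytamoxifen as pups. The 4 beta-catenin stabilized cultures carried Ctnnb1flex3/+, Pdgfb-CreER and Tie2-GFP and had also received 4-hydroxytamoxifen, which lets the Cre, expressed from the Pdgfb promoter that is active in ECs, delete the exon that marks beta-catenin for degradation. Method A gave stabilized replicates 1 and 2, and method B gave 3 and 4. These assignments are those of the paper's methods section and are used here. A figure legend of the paper differs for the WT cultures. It places in method B only the 2 samples sequenced by another facility, and the other 4 in method A. Several mice were pooled for each isolation, so the spread between paired wells is not a spread between animals.

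The libraries differed in format, and the format followed the groups. Acute libraries were read for 75 cycles from 1 end and the cultures for 36 cycles from both ends, except WT replicates 3 and 4, which an outside provider prepared and read for 150 cycles. Acute isolation against culture and the sequencing format therefore cannot be told apart, and the same holds for the isolation method and the genotype of the WT cultures. Estimated read counts per library ranged from 24284843 to 94686456. The 8 endothelial markers summed to 1878 and 1883 TPM in the 2 acute EC libraries and to between 1647 and 4130 TPM in WT cultures, but 3 of them (Cldn5, Kdr and Tek) were called lower in culture, and Emcn alone, called higher, went from 101 and 176 TPM to between 939 and 2172 TPM. Markers of 9 pericyte genes summed to 549 and 562 TPM in acute ECs but to between 4.77 and 11.0 TPM in WT cultures, hemoglobin genes took 0.329% and 2.13% of the counts in acute ECs, and 6 proliferation genes summed to at most 4.97 TPM in acute ECs and to at least 11.8 TPM in WT cultures. The 6 smooth muscle markers summed to 216 and 236 TPM in acute ECs and to between 504 and 3078 TPM in WT cultures, with Acta2, Cnn1 and Tagln called higher and Myh11 lower, and the 6 astrocyte markers to 87.7 and 467 TPM against 3.36 to 45.8 TPM. The part of these marker changes in the members' values was not tested. In bulk RNA, fewer cells of a type and less RNA per cell cannot be told apart.

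The members of the nuclear and of the mitochondrial genome differed in direction between acute ECs and cultures. The mitochondrially encoded members took 3.67% and 3.72% of all counts in the 2 acute EC libraries and 8.16% and 5.19% in the GFP-negative libraries. In WT cultures their share was 0.896%, 1.12%, 0.408%, 0.464%, 0.382% and 0.372% in replicates 1 to 6, and in stabilized cultures 0.974%, 0.955%, 0.403% and 0.419%. Every culture lay below every acute library, and the 4 method A cultures lay above the 6 method B cultures.

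The nuclear members moved the other way. They took 0.336% and 0.384% of the counts in acute ECs, 0.551% and 0.616% in GFP-negative cells, and 0.685%, 0.768%, 1.52%, 1.71%, 0.778% and 0.819% in WT cultures. In stabilized cultures the share was 0.619%, 0.589%, 0.789% and 0.804%. All 6 WT cultures were above all 4 acute libraries, and the pair read for 150 cycles stood apart from the other 4. Counts of mitochondrially encoded members per count of a nuclear member consequently ran from 8.41 to 14.8 in the acute libraries, from 0.269 to 1.46 in WT cultures and from 0.511 to 1.62 in stabilized cultures.

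**Figure D1:**
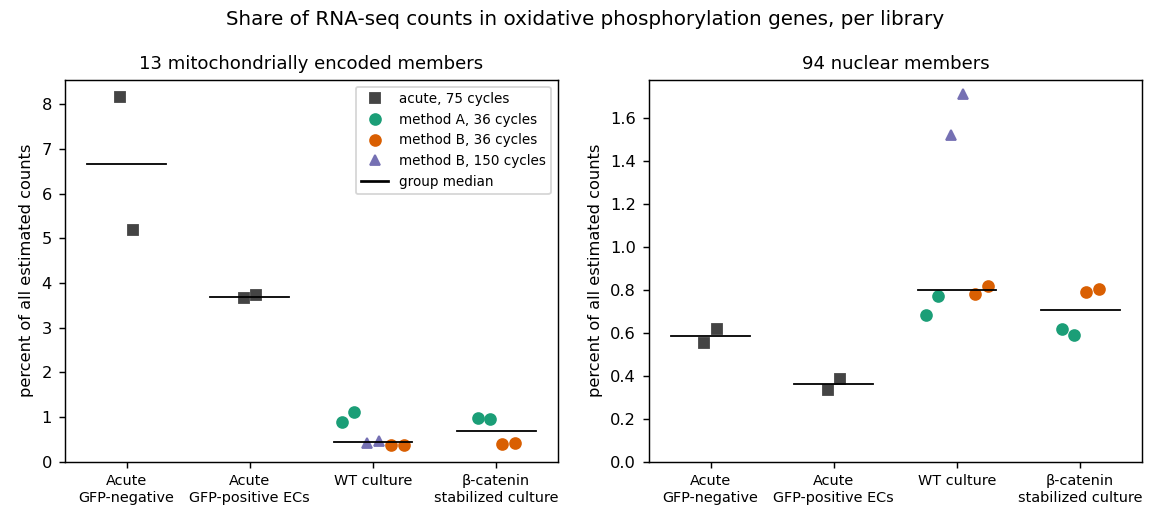
Percent of all estimated RNA-seq counts (y axis) in the 13 mitochondrially encoded members (left) and the 94 nuclear members (right), with a point for each of the 14 libraries, grouped along the x axis and marked by isolation method and read cycles; lines are group medians. The mitochondrial share is at least 3.67% in every acute library and at most 1.12% in every culture, while the nuclear share is highest, at 1.52% and 1.71%, in the 2 WT cultures read for 150 cycles.

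Among the mitochondrially encoded members, mt-Co1 (the catalytic subunit of complex IV) held a larger part of the mitochondrial counts in every culture than in any acute library. It held 33.1% to 35.3% of the mitochondrial members' counts in the 4 acute libraries. In WT cultures it held 87.5%, 86.0%, 43.5%, 46.0%, 63.3% and 71.2%, and in stabilized cultures between 72.6% and 76.2%. Mitochondrial rRNA, which lies outside the members, took 7.52% and 6.85% of the counts in acute ECs and between 0.0833% and 1.20% in WT cultures. The share of these rRNA counts was thus also lower in each WT culture than in each acute library.

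The comparison of WT cultures with acute ECs was made with edgeR's quasi-likelihood test on the counts of 13756 genes. Calls required an adjusted p (Benjamini-Hochberg) under 0.05, a log2 fold change beyond 1 in size and at least 5 TPM in every library of the higher group, where TPM is the abundance of a transcript relative to all others after division by its length. Of all genes tested, 13.6% were called higher and 10.3% lower in culture. Of the 94 nuclear members, 89 passed the count filter, and 40 of these were called higher and 0 lower. At an unadjusted p under 0.05, 2 were lower (Cox4i2 and Ndufaf7), and DESeq2 called 45 higher and 0 lower. The 13.6% and 10.3% belong to edgeR, and no share of all genes stands beside the DESeq2 counts. With the adjusted p alone, 47 were higher and 1 lower, the latter being the assembly factor Ndufaf7, against 23.9% and 21.4% of all genes. The median log2 fold change of the nuclear members was 1.40, against 0.10 for all genes tested. Of the 13 mitochondrially encoded members, 10 were called lower and 1 higher, with a median of -4.64. In the TPM values, 61 nuclear members were higher in all WT cultures than in both acute libraries and 4 were lower, against 32.1% and 16.3% of all genes. The 5 nuclear members that did not pass the filter were Cox6a2, Cox7a1, Cox7b2, Cox8b and Cox8c. Cox6a2, Cox7a1 and Cox8b are isoforms known from muscle, and Cox7b2 and Cox8c from testis.

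**Figure D2:**
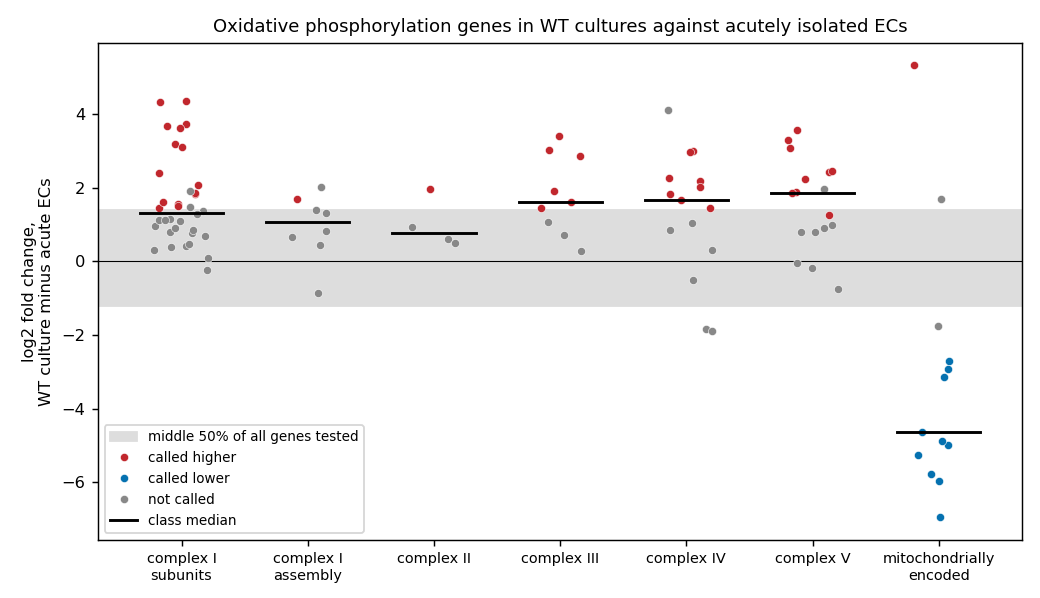
Log2 fold change of each member, WT culture minus acute ECs (y axis), by complex (x axis), coloured by call, with class medians as black lines and the middle 50% of all genes tested as a grey band. Each of complexes I to V holds called nuclear members above the band (in complex II only Sdhb) and none called lower, whereas 10 of 13 mitochondrially encoded members lie far below it.

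Complex I takes electrons from NADH and is the largest of the enzymes. Of its 36 nuclear subunits, 15 were called higher and 0 lower, with a median log2 fold change of 1.33. The accessory subunit Ndufs5 was at 1.72 and 8.43 TPM in acute ECs and at 111, 146 and 518 TPM (lowest, median and highest) in WT cultures. Its log2 fold change was 4.37 ± 0.57 (SE, n = 2 and 6, edgeR adjusted p = 0.000593). Of the reads of Ndufs5 and a near-identical copy, 83.5% and 68.4% stood under the copy in acute ECs and at most 9.28% in WT cultures. With those reads added the log2 fold change of Ndufs5 was 2.49. The membrane-arm subunit Ndufb6 was at 5.25 and 14.8 TPM in acute ECs and at 170, 244 and 656 TPM in culture, a log2 fold change of 4.34 ± 0.61 (edgeR adjusted p = 0.000828). For both genes the lowest culture was more abundant than the highest acute library.

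Other accessory subunits followed. Ndufa2 was at 8.73 and 9.74 TPM in acute ECs and at 122, 172 and 623 TPM in culture (log2 fold change 3.74 ± 0.55). Ndufa11 was at 5.06 and 16.3 TPM against 64.3, 146 and 992 TPM (3.69 ± 0.92), and Ndufa7 was at 9.25 and 27.7 TPM against 161, 193 and 656 TPM (3.63 ± 0.44). Ndufs1, a core subunit which carries iron-sulfur clusters, was at 11.5 and 16.2 TPM in acute ECs and at 27.9, 38.1 and 51.7 TPM in culture. Its log2 fold change of 0.98 ± 0.26 had an edgeR adjusted p of 0.0147 but fell short of the fold required. Ndufv1, which binds NADH, was at 50.2 and 58.2 TPM against 36.2, 48.1 and 155 TPM, and its groups overlapped (0.69 ± 0.28, edgeR adjusted p = 0.0679).

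Ndufa10 behaved differently by level and by count. It was at 527 and 334 TPM in acute ECs and at 40.3, 56.4 and 115 TPM in WT cultures, so every culture lay below both acute libraries. Its counts differed little, with a log2 fold change of -0.23 ± 0.38. TPM divides counts by the effective transcript length that Salmon estimated for each library, and with those lengths entered as an offset the log2 fold change was -3.42. The Ndufaf assembly factors, which help build complex I and are not part of it, had 1 called higher of 8 and a median of 1.08. This was Ndufaf3, at 2.82 and 4.94 TPM in acute ECs and at 12.1, 19.0 and 71.2 TPM in culture (1.69 ± 0.39, edgeR adjusted p = 0.00785).

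Complex II oxidizes succinate and is also an enzyme of the citrate cycle. Only Sdhb, its iron-sulfur subunit, was called among its 4 genes, and the median was 0.78. Sdhb was at 16.3 and 31.2 TPM in acute ECs and at 69.5, 82.4 and 385 TPM in culture, with no overlap (1.98 ± 0.44, edgeR adjusted p = 0.00636). Sdha, the flavoprotein subunit, was at 60.6 and 223 TPM against 16.2, 44.2 and 209 TPM, with overlapping groups and no call (0.61 ± 0.66). With the length offset the log2 fold change of Sdha was -1.51.

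In complex III, 6 of 9 members were called higher, with a median of 1.62. Cyc1, the cytochrome c1 subunit that hands electrons to cytochrome c, was at 20.3 and 12.5 TPM in acute ECs and at 24.6, 82.7 and 259 TPM in culture (2.87 ± 0.79, edgeR adjusted p = 0.0163). Uqcrfs1, the Rieske iron-sulfur protein, was at 14.9 and 18.3 TPM against 57.4, 74.2 and 171 TPM (1.44 ± 0.32, edgeR adjusted p = 0.00693). The cultures were above the acute libraries for both, but the lowest Cyc1 culture was close to the higher acute library. Uqcrc1, a core protein of the matrix side, was at 89.1 and 90.9 TPM against 64.8, 103 and 508 TPM, and was not called (1.09 ± 0.56, edgeR adjusted p = 0.139).

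In complex IV, 8 of the 15 members tested were called higher, with a median of 1.66. Common isoforms of its small subunits were among them. Cox8a was at 28.2 and 48.1 TPM in acute ECs and at 439, 509 and 1733 TPM in culture (2.97 ± 0.41, edgeR adjusted p = 0.000728). Cox6a1 was at 72.2 and 104 TPM against 201, 367 and 2169 TPM (1.82 ± 0.62), Cox6b1 at 116 and 122 TPM against 308, 370 and 1030 TPM (2.28 ± 0.39), and Cox7a2 at 40.8 and 48.9 TPM against 245, 324 and 624 TPM (2.20 ± 0.30). Cox5a was at 57.9 and 97.3 TPM against 155, 394 and 931 TPM (1.66 ± 0.50, edgeR adjusted p = 0.0232). In each of these genes the 2 highest cultures were replicates 3 and 4, the pair read for 150 cycles.

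Cox4i1, the common form of a regulatory subunit, was at 201 and 230 TPM in acute ECs and at 326, 419 and 1297 TPM in culture, but its fold change of 0.85 ± 0.31 was below the fold required. Its oxygen-regulated counterpart Cox4i2 was at 2.23 and 2.28 TPM in acute ECs and at 0.297, 0.613 and 1.41 TPM in culture, and the groups did not overlap (-1.83 ± 0.76, edgeR adjusted p = 0.0765). The same pattern was seen for Ndufa4 and its hypoxia-associated relative Ndufa4l2. Ndufa4 was at 61.8 and 21.5 TPM against 182, 212 and 397 TPM (1.47 ± 0.52, edgeR adjusted p = 0.0462), while Ndufa4l2 was at 4.24 and 11.0 TPM against 0.537, 1.48 and 3.14 TPM (-1.88 ± 0.91, edgeR adjusted p = 0.121). Cox4i2 and Ndufa4l2 are also known as genes of pericytes, and 7 of the 9 pericyte markers were called lower in the same comparison. The part of that change in the values of Cox4i2 and Ndufa4l2 was not tested.

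The remaining isoforms were less regular. Cox7b was called higher by counts (2.03 ± 0.32), yet its TPM was lower in every culture, at 278 and 665 TPM in acute ECs and at 186, 222 and 275 TPM in WT cultures. With the length offset its log2 fold change was -1.505. Cox7a2l, a subunit linked to supercomplexes, was at 84.6 and 121 TPM against 97.3, 110 and 193 TPM and overlapped (-0.50 ± 0.49). Cox6b2, known from testis, was at 0.0869 TPM in 1 acute EC library and listed at 0 in the other. It was at 0.113, 0.370, 11.8, 8.95, 0.637 and 0.198 TPM in WT cultures, so the 2 libraries read for 150 cycles decided its mean (4.11 ± 2.01, edgeR adjusted p = 0.123).

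In complex V, 9 of 17 members were called higher, with a median of 1.87. Atp5l, the g subunit of the membrane part, was at 41.6 and 32.99 TPM in acute ECs and at 269, 387 and 660 TPM in culture (3.58 ± 0.36, edgeR adjusted p = 0.000192). Near-identical copies held 32.7% and 58.8% of the reads of Atp5l and its copies in acute ECs and at most 1.28% in WT cultures. With those reads added the log2 fold change of Atp5l was 2.67. Atp5b, the catalytic beta subunit, was at 189 and 180 TPM against 326, 519 and 1318 TPM (1.26 ± 0.44, edgeR adjusted p = 0.0426). Atp5a1, its alpha partner in the catalytic head, was at 77.6 and 178 TPM against 188, 214 and 460 TPM and fell short of the fold required (0.80 ± 0.28). Neither Atp5b nor Atp5a1 overlapped between the groups, although the margin for Atp5a1 was small.

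The c ring, through which protons pass, is encoded by 3 genes with the same mature protein. Atp5g1 was at 38.6 and 23.9 TPM in acute ECs and at 123, 147 and 904 TPM in culture (2.26 ± 0.66, edgeR adjusted p = 0.0214). Atp5g3 was at 68.4 and 43.3 TPM against 84.4, 266 and 995 TPM, without a call (1.98 ± 0.88, edgeR adjusted p = 0.0944). Atp5g2 was at 88.8 and 187 TPM in acute ECs and at 25.1, 34.2, 511, 527, 32.2 and 35.1 TPM in WT replicates 1 to 6. The 4 cultures read for 36 cycles were below both acute libraries and the 2 read for 150 cycles were above them. In the 4 libraries read for 36 cycles, between 82.5% and 86.2% of the reads of Atp5g2 and its near-identical copies stood under those copies, and in the 2 read for 150 cycles 0% did. With those reads added the log2 fold change of Atp5g2 was 0.38 instead of -0.75.

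Each pair of WT wells was compared separately with the 2 acute EC libraries, which all 3 comparisons share. The 36-cycle pair of method A had 36 nuclear members called higher, against 15.2% of all genes in that fit. The 36-cycle pair of method B had 38, against 15.7%, and the 150-cycle pair of method B had 63, against 21.3%.

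Not all calls held when any 1 of the 8 libraries was left out. Among the nuclear members named above, the call was lost in 7 such fits for Ndufa4, whose log2 fold change then ranged from 0.75 to 2.89, in 6 for Atp5b (0.93 to 1.65) and in 5 for Cox6a1 (1.57 to 1.97). It was lost without either acute library for Cyc1 (2.51 to 3.33) and Cox5a (1.53 to 1.80), without the first acute library for Ndufa11 (3.26 to 4.29) and Sdhb (1.79 to 2.17), and without the second for Uqcrfs1 (1.32 to 1.56) and Atp5g1 (1.76 to 3.01). Ndufs1 was called higher when WT replicate 3 or 4 was left out (1.02 and 1.01). All of these values were above 0.

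Transcript length ran alongside these values. The nuclear members are short genes, with a median effective length of 426.9 bases against 1785 bases for all protein-coding symbols, and 83 of 94 were under 1000 bases. Among all genes tested, the median log2 fold change in culture was 1.73 for the 551 genes under 500 bases, 0.95 for the 1705 genes between 500 and 1000 bases, 0.45 for the 4238 genes between 1000 and 2000 bases, -0.27 for those between 2000 and 4000 bases and -1.01 for longer ones. The nuclear members in the same classes had medians of 1.83 (53 genes), 1.13 (25 genes) and 0.85 (11 genes). Of the genes under 500 bases, 40.5% were called higher, against 31 of the 53 members, and between 500 and 1000 bases 26.7%, against 8 of 25. In the class from 1000 to 2000 bases 17.0% of all genes were called higher, against 1 of 11 members. The part of transcript length, and of the library format that could act through it, in the members' higher values was not tested.

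**Figure D3:**
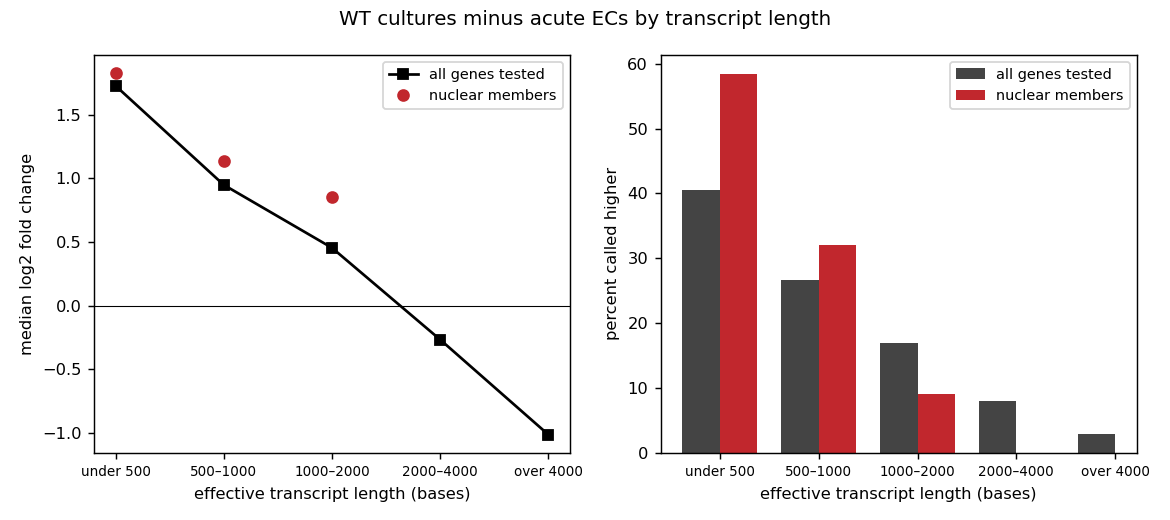
Genes grouped by effective transcript length in bases (x axis), with the median log2 fold change of WT cultures minus acute ECs (left y axis) and the percent of genes called higher (right y axis), for all genes tested (black) and for the nuclear members (red); no nuclear member is longer than 2000 bases. All genes fall from 1.73 in the shortest class to -1.01 in the longest, and the nuclear members lie close to all genes of the shortest class, at 1.83.

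Most mitochondrially encoded genes were lower in culture. The complex I subunits mt-Nd2 and mt-Nd5 were called lower. mt-Nd2 was at 5530 and 8132 TPM in acute ECs and at 50.0, 68.4 and 114 TPM (lowest, median and highest) in WT cultures, a log2 fold change of -6.95 ± 0.41 (SE, n = 2 and 6, edgeR adjusted p = 2.38e-05). mt-Nd5 was at 1656 and 2046 TPM against 20.96, 59.4 and 72.6 TPM (-5.96 ± 0.41, edgeR adjusted p = 3.95e-05). No culture came within the range of the acute libraries for either gene.

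mt-Cytb, the only mitochondrially encoded subunit of complex III, was at 4967 and 6198 TPM in acute ECs and at 111, 215 and 408 TPM in culture (-4.998 ± 0.41, edgeR adjusted p = 8.41e-05). mt-Nd4 was at 1790 and 1887 TPM against 71.1, 120 and 150 TPM (-4.87 ± 0.34), mt-Nd1 at 2107 and 1667 TPM against 254, 353 and 455 TPM (-2.93 ± 0.34) and mt-Nd6, the gene read from the light strand, at 808 and 558 TPM against 22.1, 54.5 and 95.3 TPM (-5.27 ± 0.53). All 3 were called lower. Of the ATP synthase genes, mt-Atp6 was at 2460 and 3070 TPM against 325, 599 and 978 TPM (-2.72 ± 0.38) and mt-Atp8 at 66650 and 74660 TPM against 403, 495 and 925 TPM (-5.77 ± 0.42). mt-Nd4l was at 436 and 326 TPM in acute ECs and at 0, 30.2, 3.14, 0, 29.0 and 22.9 TPM in WT replicates 1 to 6, and its call as lower (-4.64 ± 1.39, edgeR adjusted p = 0.0239) was lost without either acute library (-5.11 to -4.08). mt-Atp8 and mt-Atp6 overlap on the genome, as mt-Nd4l and mt-Nd4 do, so reads in the shared bases cannot be told apart, and the high TPM of mt-Atp8 rests on a very short gene.

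The complex IV genes were less uniform. mt-Co1 was at 6713 and 7822 TPM in acute ECs and at 6400, 7759, 1252, 1461, 1762 and 2070 TPM in WT replicates 1 to 6, so the method A pair overlapped the acute libraries and the other 4 cultures did not. It was not called (-1.77 ± 0.72, edgeR adjusted p = 0.0735). mt-Co2 was at 1853 and 1463 TPM against 39.4, 91.7 and 722 TPM and was called lower (-3.15 ± 1.06, edgeR adjusted p = 0.0379), a call lost without either acute library or without WT replicate 1, 2 or 5 (-3.70 to -2.58). mt-Co3 was at 20.1 and 266 TPM against 194, 386 and 651 TPM, with overlap (1.71 ± 0.78, edgeR adjusted p = 0.102). Leaving aside mt-Co3 and mt-Nd3, every mitochondrially encoded member had a negative fold change. Without WT replicate 1 or 2, mt-Co1 was called lower (-2.08 and -2.11), and mt-Co3 was called higher without the second acute library (3.95).

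mt-Nd3, a further complex I subunit, went the other way by its own counts. It was at 14.9 TPM in 1 acute EC library and listed at 0 in the other, and at 987, 1189, 275, 155, 327 and 430 TPM in WT replicates 1 to 6. All cultures were above both acute libraries, and the gene was called higher (5.34 ± 1.84, edgeR adjusted p = 0.0410). The call was lost without the second acute library or without WT replicate 1, 2, 5 or 6, with log2 fold changes from 4.33 to 15.0 over all fits with 1 library left out. The nuclear genome holds stretches copied from the mitochondrial genome, and 9 of the 13 mitochondrially encoded members have an annotated copy with at least 95% identity. For mt-Nd3 the copy is Gm28438 on chromosome 1, which differs from it at 1 of 345 bases. The start of each transcript is printed to show how little separates them, with the base that differs in capitals (GRCm38, mt-Nd3 at chrM:9459-9578 on the plus strand, Gm28438 at chr1:24613000-24613119 on the minus strand, 120 bases each, 5′ to 3′).
mt-Nd3: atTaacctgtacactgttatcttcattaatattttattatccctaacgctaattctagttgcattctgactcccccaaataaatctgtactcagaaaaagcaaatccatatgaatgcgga
Gm28438: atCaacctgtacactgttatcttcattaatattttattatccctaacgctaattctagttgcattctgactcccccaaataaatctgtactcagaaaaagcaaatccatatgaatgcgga

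The reads of this pair were split differently by group. Of the counts of mt-Nd3 and Gm28438 together, Gm28438 held 98.7% and 100% in acute ECs and 0%, 0%, 15.7%, 61.4%, 4.93% and 0% in WT replicates 1 to 6. With both counted together, the value was 420 and 211 CPM (protein-coding counts scaled by TMM, with a prior count of 0.5) in acute ECs and 232, 219, 57.0, 70.3, 72.1 and 93.1 CPM in culture. The 2 cultures of method A then overlapped the acute libraries and the other 4 were below them, and the log2 fold change became -1.39 ± 0.59 (edgeR adjusted p = 0.0789). The direction of mt-Nd3 thus depended on where these reads were counted.

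The same addition was made for every member with copies, an alternative chosen after the data were seen. mt-Nd4l went from a log2 fold change of -4.64 to -9.56 with the reads of Gm10222 added, mt-Nd4 from -4.87 to -5.61 with those of Gm28439, mt-Atp6 from -2.72 to -3.75 with those of Gm10925, and mt-Co2 from -3.15 to -2.32 with those of Gm28661 and Gm13341. mt-Co3 went from 1.71 to 1.57 with the reads of Gm28437 and was then called higher (edgeR adjusted p = 0.0248). Its values with the copy added were 1045 and 367 CPM in acute ECs and 2529, 2552, 1752, 2307, 1791 and 2091 CPM in culture, so no culture overlapped the acute libraries. mt-Co3 was the only mitochondrially encoded member called higher on this scale, and 10 were called lower. With the copies added, the mitochondrial share of all counts was 4.80% and 4.78% in acute ECs and between 0.569% and 1.52% in WT cultures. Of the nuclear members, 22 have such copies, and Ndufs5 and Atp5l remained called higher with their copies added, at log2 fold changes of 2.49 and 2.67.

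**Figure D4:**
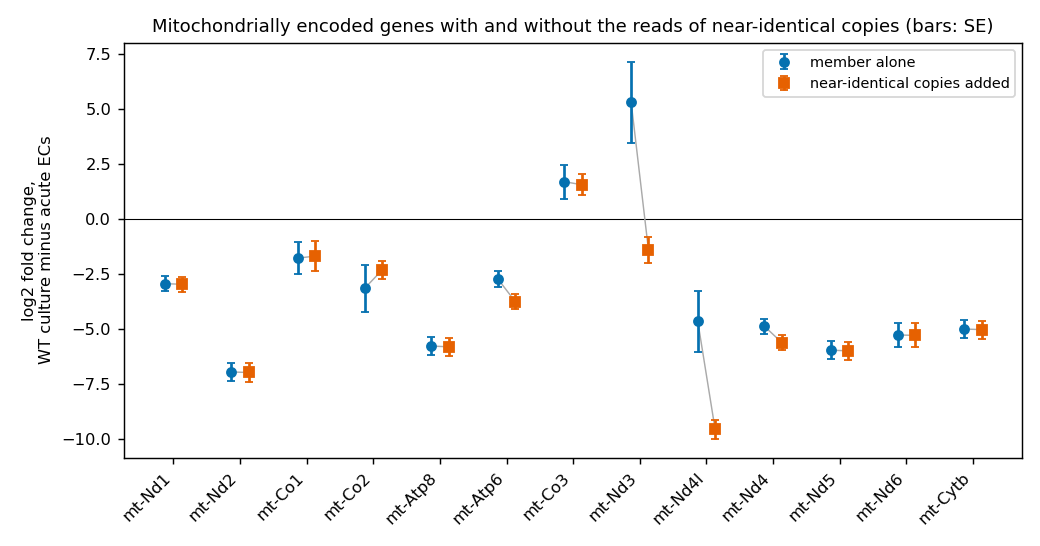
Log2 fold change of WT cultures minus acute ECs (y axis, bars are SE) for the 13 mitochondrially encoded members (x axis, in genome order), counted alone (blue) and with the reads of near-identical nuclear copies added (orange). mt-Nd3 moves from 5.34 to -1.39 and mt-Nd4l from -4.64 to -9.56, while mt-Co3 is above 0 either way.

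Other genes of mitochondrial function were taken from lists, with the counts read against the 13.6% called higher and 10.3% called lower of all genes. Of 18 genes of mitochondrial transcript processing and translation, Slirp and Tsfm were called higher and Mtpap lower. Slirp, which binds mitochondrial mRNAs, was at 4.21 and 5.58 TPM in acute ECs and between 77.1 and 197 TPM in culture (4.10 ± 0.39, edgeR adjusted p = 0.000144), and Mtpap, the mitochondrial poly(A) polymerase, was at 23.8 and 33.8 TPM against 9.96 to 20.98 TPM (-1.22 ± 0.22, edgeR adjusted p = 0.00278). Tfam, which packages mitochondrial DNA and starts its transcription, was at 9.95 and 37.1 TPM against 10.3 to 15.8 TPM and overlapped (-0.85 ± 0.41, edgeR adjusted p = 0.117).

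Of 10 regulators of mitochondrial biogenesis, Esrra was called higher (1.46 ± 0.47) and Gabpa lower (-1.27 ± 0.27). Esrra, an orphan nuclear receptor, was at 1.69 and 4.28 TPM in acute ECs and between 9.03 and 15.0 TPM in culture, whereas Gabpa, an ETS factor, was at 16.5 and 24.7 TPM against 8.85 to 13.5 TPM. Neither overlapped between the groups. Of 31 assembly factors for complexes II to V, 11 were called higher, among them Coa3 (3.19 ± 0.60) and Uqcc2 (2.51 ± 0.32), and 1, Atpaf1, was called lower (-1.88 ± 0.54). Of 15 assembly factors of complex I, a list that also holds Ndufaf members, Ndufaf3 and Timmdc1 were called higher.

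Among 13 electron carriers tested, Coq2, Coq6 and Cycs were called higher and Gpd2 lower. Cycs, the cytochrome c that links complexes III and IV, was at 0.987 and 1.29 TPM in acute ECs and between 12.997 and 82.0 TPM in culture (3.90 ± 0.78, edgeR adjusted p = 0.00414). In the citrate cycle 3 of 13 (Dlst, Idh3g and Mdh2) and in import and the outer membrane 4 of 12 (Timm23, Tomm20, Tomm22 and Tomm40) were called higher, with 0 lower in each. Of 15 genes of the hypoxia response 6 were called higher and 2 lower. Ldha, which turns pyruvate into lactate, was at 184 and 212 TPM in acute ECs and between 343 and 2141 TPM in culture (2.17 ± 0.68, edgeR adjusted p = 0.0277), and Slc2a1, the glucose transporter of the barrier, was at 1588 and 1816 TPM against 210 to 676 TPM (-2.07 ± 0.36, edgeR adjusted p = 0.00207).

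Most nuclear members had an ATAC-seq peak at a start site in every group. A gene was scored when an ATAC-seq peak with a fold enrichment over 2 and a -log10 q over 2 lay within 500 bases of an annotated start. The authors called peaks in each library separately, and libraries had between 31844 and 98840 of them. In the 2 acute EC libraries 87 and 86 of the 94 nuclear members had a peak, in the 6 WT cultures 85, 85, 88, 88, 88 and 88, and in the 2 stabilized cultures, both of method B, 87 and 87. These counts are 90.4% to 93.6% of the members, against 53.3% to 64.7% of all genes. Peaks were present in all 10 libraries for 84 members (89.4%, against 49.9% of all genes).

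The 6 members without a peak in any library were Cox4i2, Cox6a2, Cox7b2, Cox8b, Cox8c and Ndufa4l2, all of low abundance in ECs. Peaks in some libraries were seen for 4 members. Cox6b2 had a peak in the 4 WT cultures of method B, with a fold enrichment between 5.08 and 6.62, and in none of the acute, method A or stabilized libraries. Its transcripts reached 11.8 and 8.95 TPM in the 150-cycle pair of those cultures but 0.637 and 0.198 TPM in the 36-cycle pair. Cox7b had a peak in 1 acute, 4 WT and 2 stabilized libraries, and Ndufaf1 and Ndufb10 each lacked one in a single library. A peak was therefore present at the start sites of both called and uncalled members.

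The sequence before the start was searched for motifs of factors that are known for genes of this kind. RefSeq promoters (250 bases before to 50 after the start, GRCm38.p6) were matched for 76 of the 94 nuclear members. The NRF1 motif GCGCNNGCGC was found in 21 of them (27.6%, against 6.997% of 27025 genes), the ETS core CCGGAAG in 18 (23.7%, against 9.93%) and the YY1 core AAGATGG in 12 (15.8%, against 7.28%), on either strand (the ETS core then reads CTTCCGG). At least 1 of these was found in 44 members (57.9%, against 21.5%). A match is a description of letters, and no match says nothing about a factor.

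Stretches of 80 bases around a match are printed to show where the letters stand in the members described. They lie upstream of the start and are given on the strand of the gene, which is the minus strand in each case, with the motif in capitals. The NRF1 motif is shown for Ndufs5 (chr4:123718240-123718319), Cox6a1 (chr5:115349031-115349110) and Atp5h (chr11:115420016-115420095).
Ndufs5: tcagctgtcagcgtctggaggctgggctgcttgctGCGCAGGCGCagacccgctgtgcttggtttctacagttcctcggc
Cox6a1: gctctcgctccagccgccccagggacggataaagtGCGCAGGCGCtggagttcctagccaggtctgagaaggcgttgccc
Atp5h: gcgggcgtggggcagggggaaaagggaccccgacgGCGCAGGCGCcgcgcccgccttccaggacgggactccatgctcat
The ETS core is shown for Ndufb6 (chr4:40279592-40279671), Atp5l (chr9:44920912-44920991), Uqcr11 (chr10:80406845-80406924) and Atp5e (chr2:174464161-174464240).
Ndufb6: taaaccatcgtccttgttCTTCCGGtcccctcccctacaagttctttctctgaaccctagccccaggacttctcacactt
Atp5l: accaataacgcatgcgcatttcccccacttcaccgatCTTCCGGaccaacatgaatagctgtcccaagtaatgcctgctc
Uqcr11: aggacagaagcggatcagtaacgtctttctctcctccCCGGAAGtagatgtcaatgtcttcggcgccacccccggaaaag
Atp5e: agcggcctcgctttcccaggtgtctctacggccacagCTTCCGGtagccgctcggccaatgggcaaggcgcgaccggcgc

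Each of these 7 genes had a peak at its start in all 10 libraries. The log2 fold change of Atp5h, the d subunit of ATP synthase, was -0.05 ± 0.26. It was at 216 and 261 TPM in acute ECs and at 204, 282 and 634 TPM in culture. Uqcr11, a small complex III subunit, was at 11.2 and 30.3 TPM against 163, 211 and 1221 TPM (3.40 ± 0.66), and Atp5e, the epsilon subunit of ATP synthase, was at 14.2 and 15.7 TPM against 236, 286 and 575 TPM (3.30 ± 0.36). The strongest peak of Ndufs5 had a fold enrichment between 9.24 and 21.3 over the 10 libraries and that of Atp5h one between 9.31 and 20.7.

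Acute ECs were also compared with GFP-negative cells sorted from brain, which hold the other cell types. Of 15080 genes tested, 8.34% were called higher in ECs and 7.59% lower. Among the 92 nuclear members tested, 1 was called higher and 2 lower, and the median log2 fold change was -0.43, against -0.06 for all genes. These counts depended on the scaling. Library size scaling gave 0 higher and 9 lower with a median of -0.81, against -0.44 for all genes, and called 4 mitochondrially encoded members lower, while the length offset called 0 nuclear members. In the TPM values, 48 nuclear members were lower in both EC libraries than in both GFP-negative libraries and 2 were higher, against 37.1% and 20.2% of all genes. With the adjusted p alone, 1 nuclear member was higher and 4 were lower, against 9.99% and 19.8% of all genes. Of the 13 mitochondrially encoded members, 0 were called by edgeR or by DESeq2 and 0 had an unadjusted p under 0.05, with a median of -0.54.

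Cox7a2l was the member called higher, at 84.6 and 121 TPM in ECs and 36.0 and 79.5 TPM in GFP-negative cells (1.42 ± 0.37, n = 2 and 2, edgeR adjusted p = 0.0331). The TPM groups did not overlap, but the lower EC library was close to the higher GFP-negative one. Cox8a was called lower, at 28.2 and 48.1 TPM against 116 and 167 TPM (-1.57 ± 0.37, edgeR adjusted p = 0.0237), as was Ndufs1, at 11.5 and 16.2 TPM against 46.8 and 38.1 TPM (-1.40 ± 0.35, edgeR adjusted p = 0.0282). The calls of Cox7a2l and Cox8a were lost without any of the 4 libraries but the second EC library (1.12 to 1.76 for Cox7a2l and -1.66 to -1.54 for Cox8a), and that of Ndufs1 without any (-1.56 to -1.21). Cox7b2 was listed at 0 in both EC libraries and was at 2.54 and 19.0 TPM in GFP-negative cells, and Cox6b2 was at 6.11 and 4.16 TPM there; neither reached 5 TPM in every library of that group.

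The share of mitochondrially encoded members differed between the GFP-negative libraries, at 8.16% and 5.19%, by more than between the EC libraries. mt-Atp6 was listed at 0 in the first GFP-negative library and at 3569 TPM in the other. In the first, 100% of the counts of mt-Atp6 and its copy Gm10925 stood under the copy. With the copy added mt-Atp6 was at 11855 and 5231 CPM in GFP-negative cells and at 7302 and 5422 in ECs, and the groups overlapped.

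Stabilizing beta-catenin was tested in cultures, with 4 stabilized against 6 WT wells and 12935 genes. With edgeR 0 genes were called in either direction (0%), and so 0 of the 89 nuclear and 0 of the 13 mitochondrially encoded members. At an unadjusted p under 0.05 there were 1421 genes, among them 25 nuclear members and 0 mitochondrially encoded ones. DESeq2 called 14 genes higher and 3 lower, none of them members. In the TPM values 1 nuclear member, Ndufaf6, was lower in all stabilized than in all WT cultures and 0 were higher, against 0.286% and 0.441% of all genes. The fold change was below 0 for 86 of the 89 nuclear members, with a median of -0.50 against -0.07 for all genes, and the mitochondrially encoded members had a median of 0.35. Of all genes, those under 500 bases had a median of -0.40, where the nuclear members were at -0.60, and those over 4000 bases a median of 0.39.

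The pooled comparison joins wells of different isolation and format, so the effect was also taken within each method. In method A (2 against 2 wells, all read for 36 cycles, C57BL/6J as WT) the median was -0.52 for nuclear and 0.77 for mitochondrially encoded members. In method B (2 against 2 wells read for 36 cycles, WT with the flex3 allele and without Cre) it was 0.02 and -0.08. Both medians, which rest on counts, were thus away from 0 in method A and near 0 in method B. No median of all genes stands beside them, so they do not set the members apart from other genes. Of all genes, 5.39% were called higher and 0.92% lower in method A, and 1.09% and 0.289% in method B. By TPM the nuclear members of method A went the other way as a sum. They took 1.02% and 1.30% of TPM in WT and 1.39% and 1.44% in stabilized wells. Their share of counts was 0.685% and 0.768% against 0.619% and 0.589%. The direction of the nuclear members in method A thus depended on the measure. The WT genotype, the isolation and the experiment cannot be told apart here.

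In method A, mt-Nd2 was at 50.0 and 72.8 TPM in WT and at 299.7 and 324 TPM in stabilized cultures (1.63 ± 0.08, n = 2 and 2, edgeR adjusted p = 0.000249). mt-Cytb was at 111 and 190 TPM against 726 and 813 TPM (1.62 ± 0.11, edgeR adjusted p = 0.000436), and mt-Nd4 at 71.1 and 105 TPM against 311 and 443 TPM (1.39 ± 0.16, edgeR adjusted p = 0.00100). All 3 were called higher, without overlap, as were 5.39% of all genes in method A. The share of all mitochondrially encoded members in the counts was 0.896% and 1.12% in WT and 0.974% and 0.955% in stabilized wells of method A. Mitochondrial rRNA took 0.104% and 0.0833% of the counts there in WT and 1.23% and 1.62% in stabilized wells. The part of that difference in the 3 calls was not tested. In method B mt-Nd2 was at 64.1 and 53.2 TPM against 60.5 and 54.1 TPM (-0.05 ± 0.10), mt-Cytb at 214 and 216 TPM against 238 and 213 TPM (0.11 ± 0.07) and mt-Nd4 at 135 and 90.4 TPM against 106 and 97.4 TPM (-0.16 ± 0.18). These groups overlapped for each of the 3 genes.

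Of the nuclear members, Atp5e, Ndufa12 and Ndufaf6 were called lower in method A and none in method B, against 0.92% and 0.289% of all genes. Atp5e was at 236 and 316 TPM in WT and at 172 and 168 TPM in stabilized wells of method A (-1.28 ± 0.08, edgeR adjusted p = 0.000414), and at 251 and 255 TPM against 275 and 264 TPM in method B (0.23 ± 0.05). Ndufa12, an accessory subunit of complex I, was at 112 and 121 TPM against 92.1 and 100.1 TPM in method A (-1.02 ± 0.12, edgeR adjusted p = 0.00112) and at 76.5 and 83.7 TPM against 67.5 and 64.6 TPM in method B (-0.19 ± 0.06). Ndufa12 was thus lower in stabilized wells in both, and the amounts differed by counts. Its mean TPM went from 116.6 to 96.1 in method A and from 80.1 to 66 in method B, a similar proportion. In method B 0 members were called higher, against 1.09% of all genes, and the single member called lower was mt-Co2, at 39.4 and 39.8 TPM in WT against 7.98 and 17.95 TPM (-1.55 ± 0.36), and with the reads of its copies added it was at 612 and 580 against 602 and 631 CPM, with overlap.

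**Figure D5:**
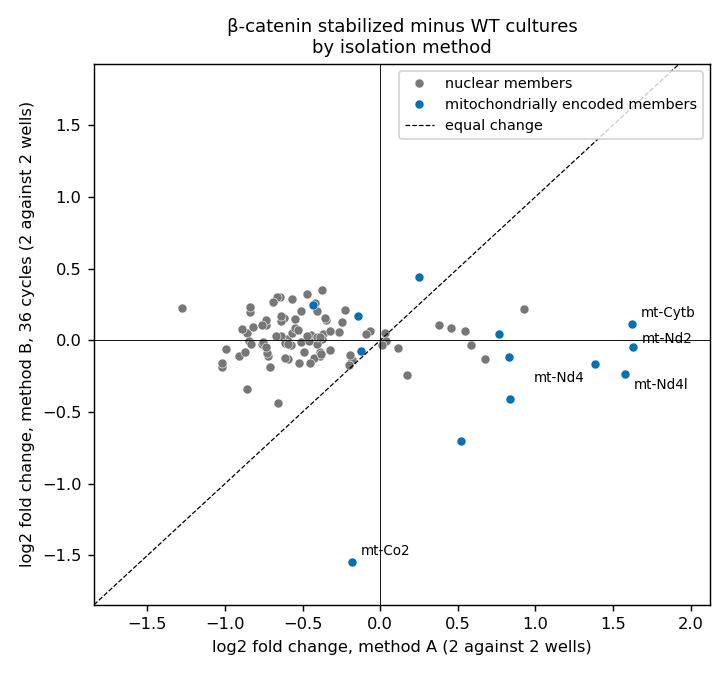
Log2 fold change of stabilized minus WT cultures for each member in method A (x axis) and in method B at 36 cycles (y axis), 2 against 2 wells each, for nuclear (grey) and mitochondrially encoded (blue) members; the dashed line marks equal change. Most nuclear members lie to the left of 0 in method A and around 0 in method B, with medians of -0.52 and 0.02. Some lie to the right of 0 in method A, among them Sdha at 0.93 and Ndufab1 at 0.67. mt-Nd2, mt-Cytb and mt-Nd4 lie beyond 1 in method A and near 0 in method B.

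The difference between the methods was tested as an interaction in the 8 cultures read for 36 cycles. Its adjusted p was under 0.05 for 71 of the 89 nuclear members (79.8%) and for 8 of the 13 mitochondrially encoded members (61.5%), but 50% of all 13327 genes tested passed as well. By counts, the effect was higher in method B for 64 of the 71 nuclear members, and lower in method B for 7 of the 8 mitochondrially encoded ones. As a share of TPM, the nuclear members of method A were higher in stabilized than in WT wells, so their direction depended on the measure. The directions over all genes were not counted in this fit. The spread in this fit is that between paired wells of a single isolation, so its p-values say that the pairs of wells differed and not that the methods did.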

How the data were processed

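RNA-seq was measured in 14 of the libraries used here and ATAC-seq in 10. The 6 samples titled cerebrum in the series had no file used here and were not analysed on their own. Per the study's methods, the authors quantified transcripts with Salmon 0.14.0 against GENCODE M21 and deposited, per transcript, the estimated counts and TPM (relative abundance, scaled by effective length); ATAC-seq reads were aligned to GRCm38 with HISAT2 2.1.0, and the authors deposited MACS2 2.1.2 peaks per library with a score, a fold enrichment (a ratio of pileup to background) and -log10 p and q values. The authors' peak columns were filtered at a fold enrichment over 2 and a -log10 q over 2. Salmon was run with automatic detection of the library type, without mappings incompatible with it, and with corrections for sequence, GC and positional bias, which enter the effective lengths.

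Transcript values were summed per symbol, and estimated counts were rounded to whole numbers. Each of the 3 comparisons was fitted over all protein-coding genes that passed filterByExpr, using edgeR 4.0.16 (TMM scaling, quasi-likelihood test, R 4.3.3) and only the libraries compared, with Benjamini-Hochberg adjustment over all genes tested. DESeq2 1.42.0, a length offset, other scalings and left-out libraries were alternatives. Near-identical copies were found with blastn 2.17.0 (at least 95% identity over at least 100 bases and 50% of the transcript). The members and all lists were chosen with earlier results of these data known. Named were the mitochondrially encoded members, a core subunit or more of each complex, isoform pairs, and in each comparison up to 6 called members with the largest change in each direction; Ndufa10, Ndufaf3, Uqcr11, Atp5e, Atp5h and the genes named from lists were chosen after their values were seen. Samples were grouped by title; the label of 1 stabilized RNA-seq library gives genomic DNA as its molecule, and it was used as RNA-seq. Paired wells came from a single isolation, so p-values measure partly the spread between wells. Precision is limited by the number of wells and by depth (24284843 to 94686456 counts). In simulated data for the culture comparison (13529 genes), 69% of changes of 3 and 10% of changes of 1.5 on the log2 scale were recovered, with 3 false calls. The simulated libraries were drawn independently with the same dispersion for all genes. They held no paired wells and no difference in format, so these shares do not describe that part of the design.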

Additional observations from a re-analysis of the deposited data

Results flagged for a closer look

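Groups of 4 to 10 libraries were searched for a library far from the others, with the gap to the nearest library divided by the range of the group (chance passes about 1 in 20 groups). Of 95 groups tested, 2 passed. In stabilized cultures mt-Co2 was at 249 TPM in replicate 1 and at 19.8, 7.98 and 17.95 TPM in the others, a ratio of 0.951. Ndufaf6 was at 4.25, 4.57, 4.27 and 4.28 TPM there, a ratio of 0.894 within a narrow range.

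By the interaction test, the effect of stabilization differed between the paired wells of method A and those of method B. Of all 13327 genes tested, 50% passed that test at an edgeR adjusted p under 0.05. The median difference in log2 fold change, method B minus method A, was 0.51 over the nuclear members and -1.23 over the mitochondrially encoded members. Of the members called in a single method it was -1.52 for mt-Cytb, -1.68 for mt-Nd2, -1.56 for mt-Nd4, 1.49 for Atp5e, 0.821 for Ndufa12 and 0.848 for Ndufaf6, each with an edgeR adjusted p under 0.05 between paired wells. For mt-Co2, called lower in method B, it was -1.38 (edgeR adjusted p = 0.377). All of these differences rest on counts. As a share of TPM, the nuclear members of method A were at 1.02% and 1.30% in WT and at 1.39% and 1.44% in stabilized wells. The methods and the experiments cannot be told apart.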

How the results depend on the processing

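Nuclear members called higher in culture (40) stayed between 29 and 43 with any 1 library left out, with medians from 1.22 to 1.53 and 0 called lower; the mitochondrially encoded members called lower were 8 to 10, called higher 0 or 1, with medians from -5.11 to -4.08. A lone library left in a group is assumed there to vary like the other group. Counting only 150-cycle cultures gave 63 higher and 1 lower with a median of 1.75, Atp5g2 at 0.47 and 0 mitochondrially encoded members higher. The 36-cycle cultures alone gave 2 lower, medians of 1.08 and -5.09 (mitochondrial) and Sdha at -0.14; method A alone gave 1 lower, a median of 0.88, 0 mitochondrial members higher and Sdha at -0.71; the 36-cycle pair of method B, added after the data were seen, gave 2 lower, medians of 1.06 and -5.03 and 0 mitochondrial members higher, as did summed wells (0). With the length offset 4 nuclear members were lower, and Cox7b (-1.505), Ndufv1 (-0.31) and Sdha (-1.51) changed sign. With near-identical copies added, also chosen after the data were seen, mt-Nd3 (-1.39), Atp5g2 (0.38) and, on stabilization, mt-Co2 (0.43) changed sign, and the mitochondrial median was -5.02. The adjusted p alone called 1 nuclear member lower, against 21.4% of all genes. Apart from the shares given above, these counts have no share of all genes beside them and say nothing about the members alone.

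In ECs against GFP-negative cells, library size scaling moved the median of all genes from -0.06 to -0.44 and the nuclear median to -0.81, with 0 nuclear members higher, 9 lower and 4 mitochondrial members lower. Of all genes it called 932 higher and 1424 lower, against 1257 and 1144. The length offset called 663 and 901 genes, gave a nuclear median of -0.58 and called 0 members. Nuclear members lower were 4 with DESeq2, 4 with the adjusted p alone and 7 with all 14 libraries fitted together. No share of all genes stands beside the counts with DESeq2, with all 14 libraries or with 1 library left out. With 1 library left out, nuclear calls ranged from 0 to 1 higher and 0 to 3 lower, the nuclear median from -0.58 to -0.32, the mitochondrial calls from 0 to 1 higher, and the mitochondrial median from -1.07 to 0.21, the last without GFP-negative replicate 1. In culture, library size scaling moved the median of all genes from 0.10 to 0.30.

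On stabilization, method A alone called 3 mitochondrial members higher and 3 nuclear members lower, and method B alone 1 mitochondrial member lower, with medians of 0.0231 (nuclear) and -0.0768 (mitochondrial) and signs changed for Atp5e (0.23), mt-Nd2 (-0.0461) and mt-Nd4 (-0.16). Of all genes these fits called 691 and 118, and 139 and 37.

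The sources used here do not tie replicate numbers to a shared animal or day, although WT and stabilized replicates 1 and 2 share method A, and 3 and 4 method B. Libraries with the same number deviated together with correlations of -0.03 and 0.039 in the culture comparison, 0.053 and 0.053 in the sorted cells, and 0.523, 0.526, -0.018 and 0.037 on stabilization. With the replicate block, 2 nuclear members were lower in culture, with medians of 0.89 (nuclear) and -5.19 (mitochondrial), 2 mitochondrial members higher and Sdha at -0.73. In the sorted cells the block gave 0 nuclear members higher and 1 lower. With it, 2 nuclear members were lower on stabilization (148 genes higher and 44 lower of all, against 0 and 0). For culture and the sorted cells, no share of all genes stands beside the counts with the block. On stabilization not every library correlated best with its own number, and among 36-cycle libraries the correlations were 0.437 to 0.581 within a method and -0.611 to -0.423 across methods.

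As TPM in place of counts, the median mitochondrial share was 15.4% in GFP-negative cells, 10.2% in ECs and 1.05% in stabilized cultures, and the nuclear share 0.869%, 0.566% and 1.29% there and 1.29% in WT cultures. Over protein-coding counts the mitochondrial shares were 8.885% (GFP-negative) and 4.57% (ECs), and the nuclear ones 0.767% and 0.444%. With copies added, the mitochondrial shares were 8.86% (GFP-negative), 4.79% (ECs) and 1.02% (stabilized). With stricter peaks, 91.0% (acute) and 92.0% (stabilized) of nuclear members had one, and with a window of 100 bases 91.0% and 91.5%.

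Acute groups hold 2 libraries each, and paired wells share an isolation, which limits what each test can call. In simulations of the sorted-cell comparison (14918 genes) 13% of changes of 3 and 0% of changes of 1.5 on the log2 scale were recovered. In those of stabilization (12822 genes) the shares were 100% and 40%, with 11 false calls. These simulated libraries were also drawn independently, without paired wells.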

Other observations

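Lists of other genes of mitochondrial function held few calls between acute ECs and GFP-negative cells, where edgeR called 8.34% of 15080 genes higher and 7.59% lower. Of 18 genes of mitochondrial transcript processing and translation 1 was higher, of 10 biogenesis regulators 1 was higher and 1 lower, of 13 electron carriers 1 was higher and 1 lower, and of 12 genes of import and the outer membrane 1 was lower. Of 15 assembly factors of complex I and 31 of complexes II to V, 0 were called. Ppargc1a, a coactivator known for mitochondrial biogenesis, was at 0.135 and 0.961 TPM in ECs and at 12.0 and 10.3 TPM in GFP-negative cells (log2 fold change -4.75 ± 0.50, edgeR adjusted p = 0.00231). Gabpb1, the partner of the ETS factor Gabpa, was at 114.8 and 26.1 TPM against 2.68 and 11.1 TPM (2.41 ± 0.42, edgeR adjusted p = 0.00988). Gpd2, which passes electrons from glycerol 3-phosphate to ubiquinone, was at 106 and 189.7 TPM against 8.74 and 32.7 TPM (2.76 ± 0.42, edgeR adjusted p = 0.00624), and Etfa, a carrier of electrons from fatty acid oxidation, was at 12.8 and 19.3 TPM against 82.9 and 63.7 TPM (-1.51 ± 0.40, edgeR adjusted p = 0.0335). The groups did not overlap for any of these 4 genes. Of 13 genes of the citrate cycle 0 were called in either direction. All 8 endothelial markers were called higher in ECs, and all 6 astrocyte and all 6 oligodendrocyte markers lower.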
